A study of Mus musculus with 8 samples.

Results

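The genes described here are 10 dual-specificity MAP kinase phosphatases, *Dusp1*, *Dusp2*, *Dusp4*, *Dusp5*, *Dusp6*, *Dusp7*, *Dusp8*, *Dusp10*, *Dusp14* and *Dusp16*. They were taken by gene symbol from a table of 23356 genes, and all 10 were found. Dual-specificity phosphatases remove phosphate from both the threonine and the tyrosine of the activation loop of a MAP kinase, and so switch the kinase off. Many are themselves transcribed in response to the kinases they act on, which makes their mRNA a readout of MAP kinase signaling as well as a brake on it. In DCs and macrophages, ERK, JNK and p38 act downstream of danger and cytokine receptors, and *Dusp1* in particular is known for limiting cytokine production.

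The RNA came from bone marrow-derived DCs (BMDCs) of WT mice and of GEF-H1-/- mice (genotype Arhgef2-/-), both on a C57BL/6 background (C57BL/6N in the methods). The animals were 8 to 16 weeks old, and the cells had been grown for 6 days with GM-CSF and IL-4. GEF-H1 is a signaling protein that is held on microtubules. Cells of each genotype were left without treatment or were exposed to 100 nM ansamitocin-P3, a drug that destabilizes microtubules, and all were taken at 5 h. Each of the 4 groups had 2 libraries, but the deposited table gives a single FPKM (fragments scaled by transcript length and library size) per gene and group, with the lower and upper ends of its 95% interval. The comparisons therefore have no replicate spread, and no p-value, SD or n can be given. The methods give only a target for depth, and the depth reached is unknown. The knockout is germline, so every cell of the culture carried the disrupted gene throughout development. *Arhgef2* itself was at 42.3 FPKM in control and 45.9 in treated WT DCs, and at 4.59 and 4.16 in the corresponding GEF-H1-/- DCs, with intervals that did not overlap between genotypes.

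In what follows, loci are those of the table (GRCm38, the build also called mm10, counted from 1), brackets hold the deposited interval, and 2 groups are called apart when their intervals do not overlap. A gene was counted as raised or lowered when the log2 ratio of FPKM + 1 was above 1 or below -1, a 2-fold difference on that scale, which understates the difference for genes of low FPKM. Counts over all genes refer to the 11397 genes that reached 1 FPKM in some group. All 10 phosphatases were among them, but *Dusp8* reached 1 FPKM only in the treated groups and *Dusp14* only in treated WT DCs, so these genes could be counted only because they were higher there. The other 8 had at least 1 FPKM in every group.

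Cultures of this kind are mixed. The 8 DC markers were all detected and summed to between 3975 and 6332 FPKM. *Cd74* alone, at 3073 to 4935 FPKM, made up most of that sum in each group, and *Flt3* was lowest, at 1.07 to 2.63 FPKM. Of the 8 neutrophil markers listed, 7 were detected, and *Ly6g* had no entry in the deposited data. Neutrophil markers summed to 32422 and 38285 FPKM in control and treated WT DCs and to 21832 and 22240 FPKM in the corresponding GEF-H1-/- DCs. Most of each sum was *S100a8* and *S100a9*. The FPKM of *S100a8* lay above its own interval in every group, so these sums are uncertain. It was 19401 [9356, 16474] in control WT and 10856 [5362, 8912] in control GEF-H1-/- DCs, and *S100a9* was at 10678 and 10004. Mast cell and basophil markers (8 of 8 detected) summed to 206 and 232 FPKM in WT against 399 and 385 FPKM in GEF-H1-/- DCs, and macrophage markers (8 of 8) to 184 and 124 against 286 and 256 FPKM. T cell markers stayed between 12.9 and 21.2 FPKM, B cell markers between 6.46 and 16.2 and red cell markers between 2.04 and 11.5, with *Alas2* under 0.1 FPKM in every group. In control cells, 3 macrophage markers (*C1qa*, *C1qb* and *C1qc*) and 3 mast cell and basophil markers were higher past the threshold without GEF-H1. The neutrophil precursor genes *Mpo* and *Elane* were also higher past it, and 3 other neutrophil markers, *Camp*, *Ngp* and *Ltf*, were lower with intervals apart. *Camp* was at 189 FPKM [128, 206] in WT and 15.0 [9.61, 18.0] in GEF-H1-/- DCs. *Ngp* was at 1707 [1286, 2105] and 702 [535, 863], and *Ltf* at 399 [326, 473] and 145 [118, 171]. The intervals of *Mpo* did not overlap (26.4 FPKM [21.3, 31.4] in WT and 63.1 [51.0, 75.2] in GEF-H1-/- DCs). Those of *Elane* overlapped and reached 0 (20.7 [0, 93.1] and 45.9 [0, 152]). The genotypes therefore differed in the marker sums before treatment. For neutrophils the gap in the sum lay mostly in *S100a8*, but the lower values of *Camp*, *Ngp* and *Ltf* do not depend on that gene. The part of these cells in the treated values was not tested, and in bulk RNA fewer cells of a type and less RNA per cell cannot be told apart.

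The region just upstream of the start of transcription is shown for *Dusp1*, *Dusp8* and *Dusp5*, which were all raised by the drug in WT DCs and are the only ones of the 9 members searched with a match to a cyclic AMP response element (CRE, TGACGTCA) or a CArG box, the site bound by serum response factor. *Dusp16* was also raised and held neither, and *Dusp4*, raised as well, could not be searched. The sequences are the 250 bases before the RefSeq start on the gene's own strand in GRCm38.p6, written 5′ to 3′ with CRE or CArG matches in capitals. *Dusp1* lies on the minus strand (chr17:26508473-26508722), *Dusp8* on the minus strand (chr7:142095285-142095534) and *Dusp5* on the plus strand (chr19:53528895-53529144).
Dusp1: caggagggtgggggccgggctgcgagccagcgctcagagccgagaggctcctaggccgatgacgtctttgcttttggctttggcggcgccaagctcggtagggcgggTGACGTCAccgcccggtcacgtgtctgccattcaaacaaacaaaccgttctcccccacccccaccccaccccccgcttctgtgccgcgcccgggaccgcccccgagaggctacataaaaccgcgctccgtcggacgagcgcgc
Dusp8: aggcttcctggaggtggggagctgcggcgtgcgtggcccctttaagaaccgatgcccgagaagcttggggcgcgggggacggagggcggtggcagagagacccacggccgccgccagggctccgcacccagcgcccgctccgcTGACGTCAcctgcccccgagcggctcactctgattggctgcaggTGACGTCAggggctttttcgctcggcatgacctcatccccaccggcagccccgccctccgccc
Dusp5: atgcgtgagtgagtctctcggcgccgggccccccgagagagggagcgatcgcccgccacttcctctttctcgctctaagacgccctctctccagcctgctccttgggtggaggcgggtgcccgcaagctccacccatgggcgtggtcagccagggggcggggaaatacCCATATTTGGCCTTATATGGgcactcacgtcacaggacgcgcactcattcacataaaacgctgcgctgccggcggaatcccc

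The *Dusp1* window held 1 CRE, at -143 to -136 counted from the start. The *Dusp8* window held 2 CREs, at -107 to -100 and at -63 to -56. A CRE was present in 1.62% of 27025 promoters of the same length, and more than 1 CRE in 10 of them, or 0.037%. The *Dusp5* window held 2 CArG boxes directly next to each other, at -82 to -73 and at -72 to -63. These positions count from the RefSeq start. The locus given for *Dusp5* with its FPKM starts further downstream, at chr19:53529318, and the boxes lie further from that start. A CArG box was present in 1.4% of promoters, and more than 1 in 5 of them, or 0.0185%.

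Windows were found for 9 of the 10 phosphatases, all but *Dusp4*, and both strands were searched. The GC box (GGGCGG) was present in 7 of the 9, namely *Dusp1*, *Dusp2*, *Dusp5*, *Dusp8*, *Dusp10*, *Dusp14* and *Dusp16*, against 32.9% of all promoters, and overlapped no CRE or CArG match. None of the 9 windows held the AP-1 letters TGANTCA (6.87% of all promoters), an NF-kB site (3.75%), the ETS letters CCGGAAG (7.05%) or TATAAA (13%). The windows of *Dusp6* and *Dusp7*, the pair that was lower after treatment, held none of the 7 motifs. That of *Dusp16*, which was raised in both genotypes, held GC boxes only. These are matches of letters in a short window and not measurements of binding. The map of motif matches draws them by distance from the start.

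**Figure D1:**
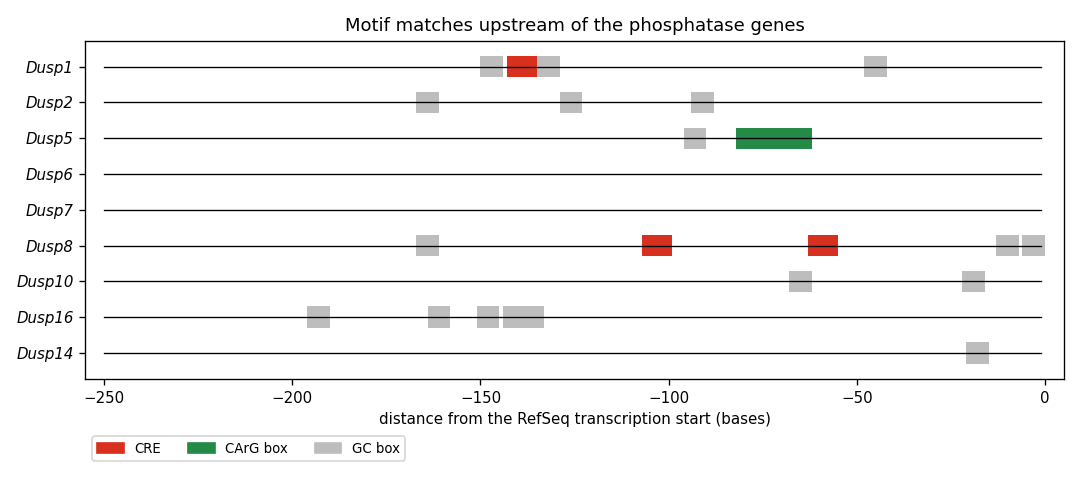
Position of motif matches in the 250 bases upstream of 9 phosphatase genes, with the distance from the RefSeq transcription start in bases on the horizontal axis. *Dusp8* carries 2 CREs and *Dusp1* carries 1 (red), *Dusp5* carries 2 adjoining CArG boxes (green), and the *Dusp6* and *Dusp7* lines are empty.

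After ansamitocin-P3, 3 of the 4 nuclear phosphatases and 2 of the 3 that prefer JNK and p38 were raised in WT DCs, and 1 of the cytoplasmic pair that acts on ERK was lowered. In WT DCs, 5 of the 10 were raised (*Dusp1*, *Dusp4*, *Dusp5*, *Dusp8* and *Dusp16*) and 1 was lowered (*Dusp7*), while 3.66% of all genes were raised and 1.28% lowered. By the intervals, 6 were apart and higher after treatment and 2 apart and lower (*Dusp6* and *Dusp7*), against 9.19% and 7.58% of all genes. The median log2 change of the 10 was 0.90, and 0.79 for the 8 present in every group, against 0.00 over all genes. Of those 8, 4 were raised and 1 lowered, and 4 were apart and higher and 2 apart and lower. In GEF-H1-/- DCs, 3 were raised (*Dusp1*, *Dusp8* and *Dusp16*) and none lowered, against 0.807% and 0.272% of all genes. There, 3 were apart and higher and 1 (*Dusp7*) apart and lower, against 2.75% and 0.956% of all genes, and the median was 0.40 against -0.01. Of the 8 present in every group, 2 were raised and none lowered without GEF-H1, with 2 apart and higher and 1 apart and lower. The plot of FPKM by group shows all 40 values.

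**Figure D2:**
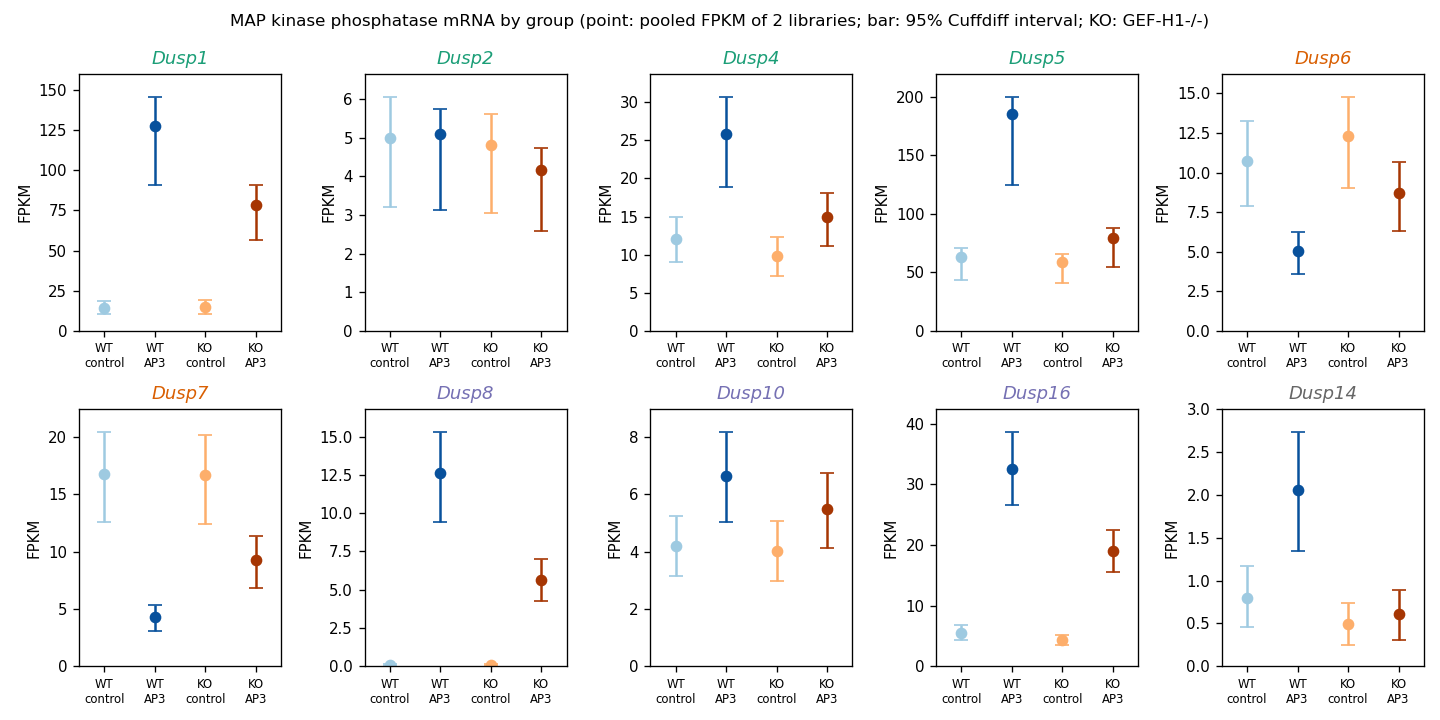
FPKM of each phosphatase in the 4 groups, with the vertical axis starting at 0 and set for each gene. Points are the deposited pooled values and bars the deposited 95% intervals, titles are colored by class, and KO stands for GEF-H1-/-. *Dusp8* runs from 0.0711 to 12.6 FPKM in WT DCs, and *Dusp7* from 16.8 down to 4.30.

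The nuclear, inducible phosphatases made up most of the summed FPKM of the 10 genes. *Dusp1* (chr17:26505591-26508472), which acts on p38, JNK and ERK and is an immediate early gene, was at 14.3 FPKM [10.3, 18.3] in untreated WT DCs and 128 [90.9, 146] with the drug. In GEF-H1-/- DCs it was at 15.0 [10.7, 19.0] and 78.3 [56.5, 90.7]. It was thus 8.90 times as high after treatment in WT, with the interval ends allowing 4.97 to 14.1, and 5.21 times as high without GEF-H1 (2.97 to 8.46). Control groups overlapped, and the treated groups were only just apart, WT being 1.63 times as high as GEF-H1-/- with a lowest ratio of 1.003. Among all genes, its log2 change of 3.07 ranked 29th in WT and its change of 2.31 ranked 24th in GEF-H1-/- DCs.

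*Dusp5* (chr19:53529318-53541322), a nuclear phosphatase that is specific for ERK, was the most abundant of the 10 in every group. It was at 63.0 FPKM [43.7, 70.8] in untreated WT DCs and 186 [124, 200] with the drug, and at 58.7 [40.5, 65.5] and 79.7 [54.4, 88.0] in GEF-H1-/- DCs. The WT groups were apart, with a ratio of 2.95 (1.76 to 4.57), but those of GEF-H1-/- DCs overlapped, with a ratio of 1.36 (0.830 to 2.17). In treated cells, WT was 2.33 times as high as GEF-H1-/- (1.41 to 3.67). On the log2 scale its change of 0.43 in GEF-H1-/- DCs was 0.281 of the WT change of 1.54, the smallest such share among the 6 phosphatases raised or lowered in WT.

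*Dusp4* (chr8:34807610-34819894), a nuclear phosphatase of ERK and JNK, behaved alike in direction but with a smaller range. Its FPKM was 12.1 [9.04, 14.9] in untreated WT DCs and 25.8 [18.9, 30.7] with the drug, and 9.80 [7.25, 12.3] and 14.9 [11.1, 18.1] in GEF-H1-/- DCs. The log2 change of 1.04 in WT passed the threshold by the least, and without GEF-H1 the change was 0.56 with overlapping intervals. The treated groups were apart, with WT 1.72 times as high. *Dusp2* (chr2:127336159-127338377), a nuclear phosphatase that is induced in activated leukocytes, stood alone in this class. It was at 4.98 FPKM [3.20, 6.05] and 5.10 [3.12, 5.75] in WT, and at 4.81 [3.04, 5.61] and 4.16 [2.57, 4.74] in GEF-H1-/- DCs. All 4 intervals overlapped, and the log2 changes were 0.03 and -0.17.

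The cytoplasmic phosphatases *Dusp6* and *Dusp7*, which are specific for ERK, were lower after treatment. *Dusp7* (chr9:106368632-106375723) was at 16.8 FPKM [12.6, 20.4] in untreated WT DCs and 4.30 [3.05, 5.31] with the drug, and at 16.7 [12.4, 20.2] and 9.29 [6.79, 11.4] in GEF-H1-/- DCs. Control cells of both genotypes were nearly equal, and control and treated cells were apart in each genotype. Control WT DCs were 3.91 times as high as treated ones (2.37 to 6.70), and control GEF-H1-/- DCs 1.80 times (1.09 to 2.97). On the log2 scale, *Dusp7* fell by 1.75 in the presence of GEF-H1 and by 0.79 in its absence, and only 21 genes in WT fell further.

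*Dusp6* (chr10:99263231-99267489) was at 10.7 FPKM [7.89, 13.2] in untreated WT DCs and 5.02 [3.56, 6.22] with the drug, and at 12.3 [9.03, 14.8] and 8.69 [6.30, 10.7] in GEF-H1-/- DCs. The WT groups were apart and the GEF-H1-/- groups overlapped. Its log2 change in WT, -0.96, came closest to the threshold without passing it, and in GEF-H1-/- DCs the change was -0.46. In treated cells both ERK-specific cytoplasmic genes were higher without GEF-H1, *Dusp7* 2.16 times (1.28 to 3.73) and *Dusp6* 1.73 times (1.01 to 2.996).

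Of the phosphatases that prefer JNK and p38, *Dusp8* (chr7:142079487-142095284) went from almost nothing to a moderate level. It was at 0.0711 FPKM [0.0276, 0.120] in untreated WT DCs and 12.6 [9.42, 15.3] with the drug, and at 0.0888 [0.0368, 0.147] and 5.66 [4.25, 7.01] in GEF-H1-/- DCs. Control groups overlapped and every other pair compared was apart. The plain FPKM ratio was 177 in WT, with the wide control interval allowing 78.8 to 554, and 63.8 in GEF-H1-/- DCs (28.9 to 191). Among genes with at least 5 FPKM after treatment and a value above 0 before it, this was the highest ratio in both genotypes, in 8208 genes of WT and 8320 of GEF-H1-/- DCs, and it rests on a control value near 0. On the FPKM + 1 scale its log2 changes of 3.67 and 2.61 ranked 17th and 21st among all genes. Treated WT DCs were 2.23 times as high as treated GEF-H1-/- DCs (1.34 to 3.60).

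*Dusp16* (chr6:134715473-134792628), a close relative of *Dusp8*, was at 5.56 FPKM [4.35, 6.76] in untreated WT DCs and 32.6 [26.6, 38.6] with the drug, and at 4.32 [3.44, 5.20] and 19.1 [15.5, 22.6] in GEF-H1-/- DCs. Treated cells were apart from control cells in both genotypes, at 5.87 times (3.93 to 8.87) and 4.41 times (2.99 to 6.55). It kept the largest share of its WT log2 change in GEF-H1-/- DCs, 0.812, against 0.752 for *Dusp1* and 0.713 for *Dusp8*. *Dusp10* (chr1:184034461-184075636), which acts on JNK and p38 in both nucleus and cytoplasm, was at 4.21 FPKM [3.14, 5.24] and 6.64 [5.05, 8.17] in WT, and at 4.03 [2.99, 5.06] and 5.49 [4.13, 6.75] in GEF-H1-/- DCs. Its intervals overlapped in every comparison.

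*Dusp14* (chr11:84048045-84068357), a small atypical phosphatase that lacks the kinase-binding domain of the others, was the scarcest after treatment. It was at 0.802 FPKM [0.460, 1.17] in untreated WT DCs and 2.05 [1.35, 2.73] with the drug, and at 0.495 [0.246, 0.737] and 0.610 [0.307, 0.890] in GEF-H1-/- DCs. Treated WT DCs were apart from each of the other groups, which overlapped among themselves. The plain ratio was 2.56 in WT (1.16 to 5.93) and 1.23 in GEF-H1-/- DCs (0.417 to 3.63), and the low level kept the log2 change in WT at 0.76.

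Before treatment the phosphatases did not differ between the genotypes beyond their intervals. Of the 10, none was raised or lowered in control GEF-H1-/- against control WT DCs, while 1.26% of all genes were higher and 0.614% lower past the threshold. The intervals overlapped for all 10, against 2.86% of all genes apart and higher and 1.88% apart and lower. After treatment, 2 were lower past the threshold in GEF-H1-/- DCs (*Dusp5* and *Dusp8*) and none higher, against 2.06% and 2% of all genes. By the intervals, 6 were apart and lower (*Dusp1*, *Dusp4*, *Dusp5*, *Dusp8*, *Dusp14* and *Dusp16*) and 2 apart and higher (*Dusp6* and *Dusp7*), against 6.73% and 7.02%. Their median log2 difference was -0.72, and -0.47 for the 8 present in every group, against -0.03 over all genes. Of those 8, 1 was lower past the threshold and none higher, and 4 were apart and lower and 2 apart and higher. These comparisons use the same 4 groups as those of the drug.

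The difference between the drug's log2 effect in WT and in GEF-H1-/- DCs was above 1 for *Dusp5* (1.11) and *Dusp8* (1.053). It was below -1 for none, against 1.36% of all genes above 1 and 0.535% below -1. Of the 8 present in every group, 1 (*Dusp5*) was above 1 and none below -1. The median difference was 0.46 for the 10 and 0.32 for those 8, against 0.01 over all genes. The difference was 0.76 for *Dusp1*, 0.65 for *Dusp14* and -0.96 for *Dusp7*. Taking all 4 intervals at their least favorable ends, the difference ran from -0.30 to 2.43 for *Dusp5* and reached past 0 for 9 of the 10. For *Dusp8* it ran from 0.27 to 1.79 on the FPKM + 1 scale, but the ranges of its plain FPKM ratios in the genotypes, given above, overlapped. All 6 phosphatases raised or lowered in WT moved in the same direction and by less in GEF-H1-/- DCs, with a median share of the WT log2 change of 0.628. Of the 563 genes raised or lowered in WT, 530 had the same direction and 549 a smaller change in GEF-H1-/- DCs, with a median share of 0.397. Both sets were chosen by their change in WT, and that choice by itself favors a smaller change in GEF-H1-/- DCs.

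**Figure D3:**
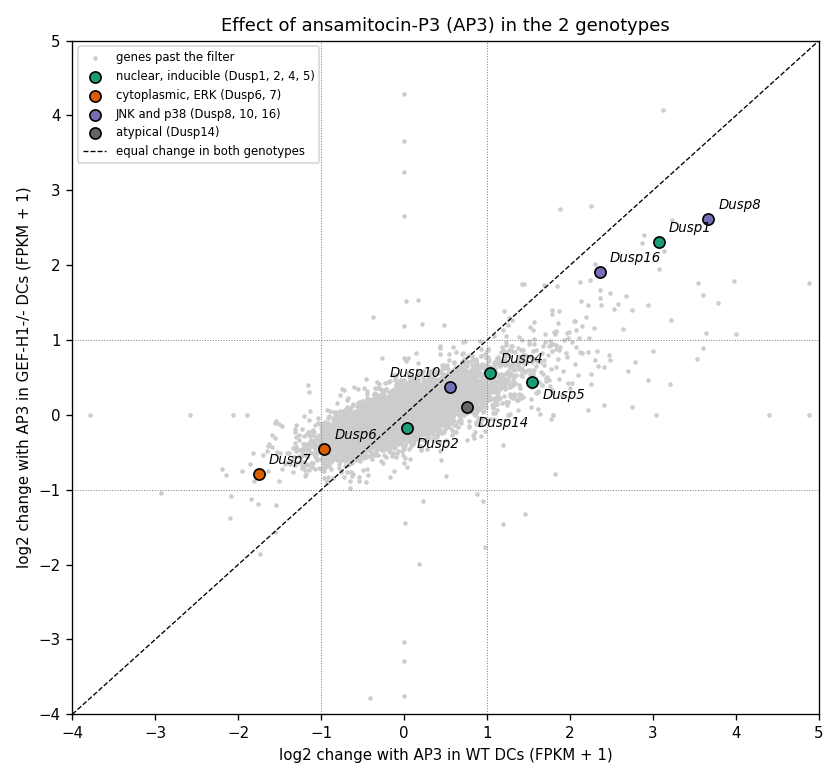
Log2 change with ansamitocin-P3 in WT DCs (horizontal) and in GEF-H1-/- DCs (vertical), on the FPKM + 1 scale, for 11397 genes (grey, 34 of them outside the plotted range) and the 10 phosphatases (colored by class). Dotted lines mark the thresholds of -1 and 1 and the dashed line equal change. *Dusp8*, *Dusp1* and *Dusp16* lie past the threshold in both genotypes, *Dusp5* at 1.54 and 0.43, and *Dusp7* at -1.75 and -0.79.

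Because FPKM is scaled by transcript length, the levels of the genes can be set against each other. In control WT DCs *Dusp5* stood apart at the top, followed by *Dusp7*, *Dusp1*, *Dusp4* and *Dusp6*, each overlapping the next, then by *Dusp16*, *Dusp2* and *Dusp10*, also overlapping, and by *Dusp14* and *Dusp8*, each apart from the gene above. In treated WT DCs *Dusp5* and *Dusp1* overlapped at the top, *Dusp16* and *Dusp4* overlapped below them, and *Dusp8* came next, apart from its neighbors on both sides. *Dusp10*, *Dusp2*, *Dusp6* and *Dusp7* followed as an overlapping series above *Dusp14*. *Dusp7* thus went from second to ninth place. In treated GEF-H1-/- DCs, *Dusp5* and *Dusp1* again overlapped at the top, but the next 7 genes, from *Dusp16* to *Dusp2*, overlapped one with the next.

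Summed over the 10 genes, FPKM was 133 in control and 407 in treated WT DCs, and 126 and 226 in GEF-H1-/- DCs. The sum was 3.07 times as high after treatment in WT and 1.79 times in GEF-H1-/- DCs, and treated WT was 1.80 times as high as treated GEF-H1-/-. The cytoplasmic ERK pair made up 20.8% of the sum in control and 2.29% in treated WT DCs, and 23.0% and 7.96% in GEF-H1-/- DCs. The JNK and p38 class held 7.42% of the control and 12.7% of the treated WT sum, and without GEF-H1 6.68% and 13.4%. Among the nuclear genes, *Dusp1* took 10.8% of the sum in control and 31.3% in treated WT DCs, and 11.9% and 34.7% in GEF-H1-/- DCs. The share of *Dusp5* was 47.5% and 45.6% in WT, and 46.5% and 35.3% in GEF-H1-/- DCs.

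**Figure D4:**
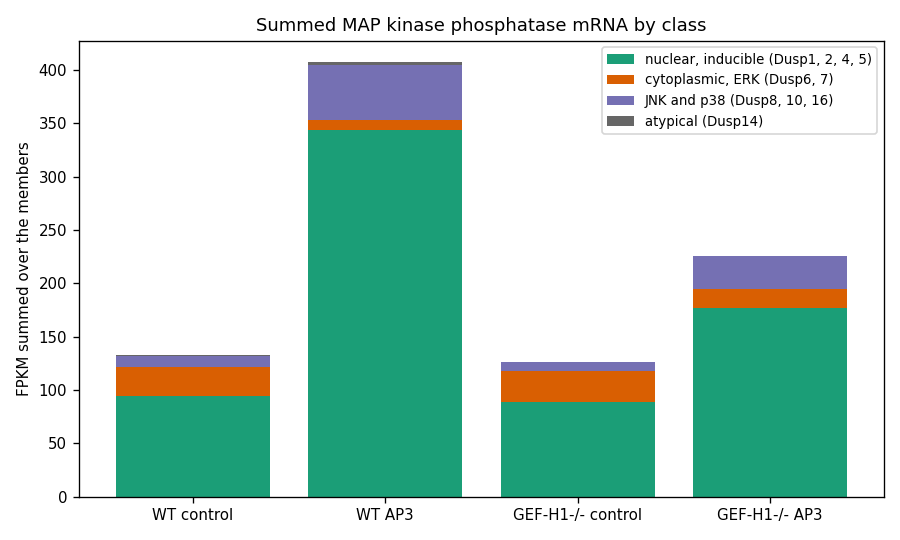
FPKM summed over the 10 phosphatases in each of the 4 groups, stacked by class from 0. The bars reach 133 and 407 FPKM in control and treated WT DCs and 126 and 226 in GEF-H1-/- DCs, and the orange block of *Dusp6* and *Dusp7* is thinnest in treated WT DCs, at 9.32 FPKM.

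The genes whose 4 values were nearest in pattern to the 2 phosphatases with the largest change in each direction were found by the distance between centered log2 values over 8894 genes. For *Dusp8* they were *Gm13889* (distance 0.488), *Gdf15* (0.488), a stress-induced cytokine, *Dusp1* (0.511), *Tuba1a* (0.595), an alpha-tubulin, and *Inhba* (0.617), the activin A subunit. *Gdf15* was at 1.18 and 19.4 FPKM in WT and at 1.48 and 14.0 in GEF-H1-/- DCs. For *Dusp7* the nearest were *Fgd2* (0.0970), *Rassf4* (0.130), the phagocytic receptor *Mertk* (0.151), *Ppargc1b* (0.183) and the chemokine receptor *Ccr2* (0.263). *Ccr2* was at 136 and 37.8 FPKM in WT and at 135 and 94.5 in GEF-H1-/- DCs. *Mertk*, which is also on the macrophage list, was at 5.46 and 0.778 FPKM in WT and at 4.56 and 2.53 in GEF-H1-/- DCs. With 4 points per gene, these distances describe the pattern only.

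The kinases of the pathway were taken from lists. Of 7 MAP kinases with sufficient FPKM (10 listed), none was raised or lowered in either genotype, where few of all genes were (3.66% and 1.28% in WT, 0.807% and 0.272% without GEF-H1), and the medians were 0.00 in WT and 0.05 in GEF-H1-/- DCs. *Mapk14*, which encodes p38 alpha, was at 48.0 and 28.2 FPKM in WT, where the groups were apart, and at 49.0 and 34.7 in GEF-H1-/- DCs, where they overlapped. *Mapk7*, which encodes ERK5, was at 14.1 and 23.9 FPKM in WT, again apart, and at 12.5 and 14.6 in GEF-H1-/- DCs. Of the 7 MAP kinase kinases, 1 was lowered in WT, *Map2k6*, an activator of p38, at 1.91 and 0.269 FPKM in WT and 1.54 and 0.437 in GEF-H1-/- DCs, and it was named after its values were seen. *Map2k4*, which activates JNK, had log2 changes of 0.55 and 0.02, with overlapping intervals in both genotypes.

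Of 2 JNK scaffolds past the filter (4 listed), *Spag9*, which encodes JIP4, was raised in WT, from 22.0 to 66.5 FPKM, and was at 18.4 and 34.0 in GEF-H1-/- DCs, apart in both genotypes. *Mapk8ip3*, the other, had log2 changes of 0.26 and 0.15. Of 10 kinases that act downstream of MAP kinases (11 listed), none was raised or lowered, with medians of 0.41 and 0.14. Among all genes, 3.66% were raised and 1.28% lowered in WT. *Rps6ka2*, a ribosomal S6 kinase, was at 5.81 and 12.1 FPKM in WT and at 5.13 and 6.08 in GEF-H1-/- DCs. *Mapkapk3*, a p38 substrate kinase, was at 113 and 187 FPKM in WT and at 111 and 125 in GEF-H1-/- DCs. Both were apart in WT and overlapped in GEF-H1-/- DCs.

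Other phosphatases acting on the same or related substrates were compared as 2 lists. Of 8 other dual-specificity phosphatases past the filter (15 listed), 1 was raised in WT, *Dusp3*, which acts on ERK and JNK, at 16.6 and 42.1 FPKM in WT and 17.9 and 29.3 in GEF-H1-/- DCs, and the list's medians were -0.06 and 0.05. *Dusp9*, which belongs to the same cytoplasmic group as *Dusp6* and *Dusp7*, did not reach the minimum, with values from 0.0918 to 0.371 FPKM. Of 4 other MAP kinase phosphatases past the filter (6 listed), none was raised or lowered, and the medians were 0.35 and 0.08. For both lists, the WT shares over all genes were 3.66% raised and 1.28% lowered. *Ppm1a*, a serine/threonine phosphatase of p38 and JNK, was at 26.0 and 42.5 FPKM in WT, apart, and at 26.6 and 33.6 in GEF-H1-/- DCs, overlapping.

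Of the genes commonly used as a readout of ERK signaling, 9 were past the filter (15 listed). Of these, 1 was raised and 1 lowered in WT (3.66% and 1.28% of all genes), none was in GEF-H1-/- DCs, and the medians were 0.03 and 0.07. By the intervals, 1 was apart and higher and 3 apart and lower in WT, against 9.19% and 7.58% of all genes. The raised gene was *Phlda1*, at 13.4 and 50.3 FPKM in WT and at 11.7 and 22.3 in GEF-H1-/- DCs. The lowered gene was *Ccnd1*, which encodes cyclin D1, at 19.8 and 6.10 FPKM in WT and at 14.1 and 13.3 in GEF-H1-/- DCs. *Etv5*, an ETS factor, was at 11.7 and 6.01 FPKM in WT and at 8.23 and 5.12 in GEF-H1-/- DCs, apart in both genotypes but not past the threshold. *Egr1*, the other gene apart and lower in WT, was at 3.93 and 2.21 FPKM there. In GEF-H1-/- DCs *Egr1* was at 3.35 and 2.54 FPKM, with overlapping intervals, and it was named after its values were seen. No gene of these 7 lists was past the threshold in GEF-H1-/- DCs, where 0.807% of all genes were raised and 0.272% lowered, as the plot of the lists shows.

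**Figure D5:**
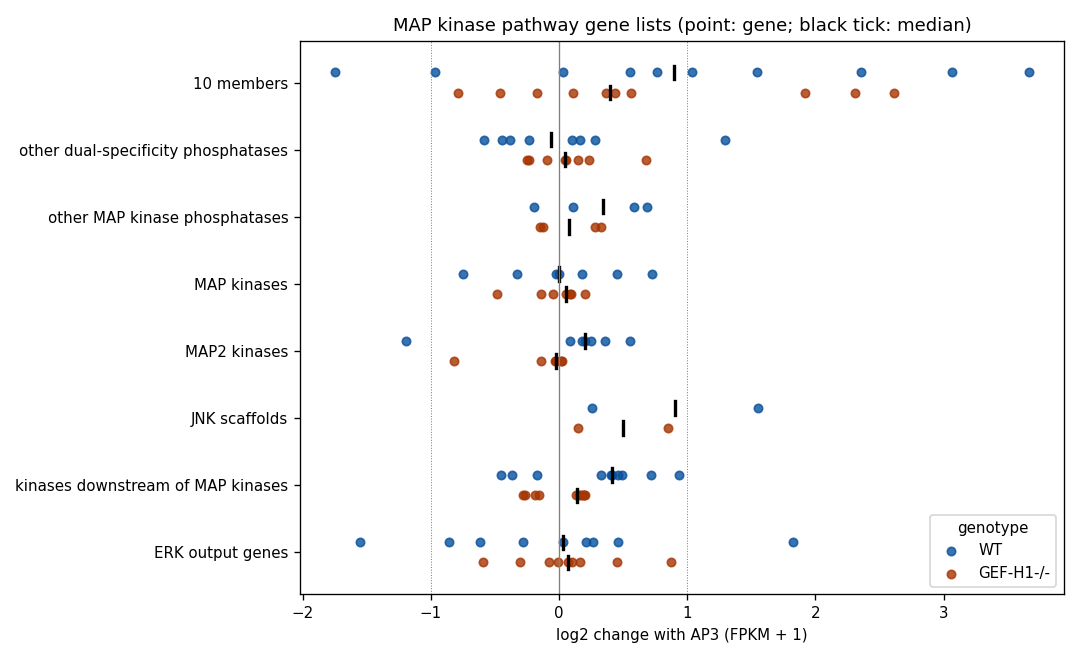
Log2 change with ansamitocin-P3 on the FPKM + 1 scale (horizontal) for the 10 phosphatases and 7 lists of MAP kinase pathway genes, in WT (blue) and GEF-H1-/- DCs (brown). Each point is a gene, black ticks are medians and dotted lines the thresholds of -1 and 1. The phosphatases span -1.75 to 3.67 in WT, and their medians are 0.90 and 0.40.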

How the data were processed

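RNA of 8 samples, 2 per group with no statement on separate cultures or animals, was made into stranded TruSeq mRNA libraries and sequenced as paired ends by the authors, who computed FPKM with Cuffdiff (version 1.05 as written in the methods, mm10 in the submitters' processing notes). The aligner and annotation behind the table are not given in the sources used here. Each deposited FPKM stands for a whole group and comes with a 95% interval and a status, and 0 columns of per-sample values were left unused. The WT columns carry no genotype in their names and were identified by elimination. Genes without an OK status in every group (107) or under 1 FPKM in every group were left out. Log2 ratios used a pseudocount of 1 FPKM. The branch of the design for separate libraries (limma) was not run, because the table is pooled. Ends quoted for a ratio divide the interval end of one group by the opposite end of the other, and they are wider than a 95% interval of the ratio. FPKM summed over all genes was 609360, 739523, 599331 and 617423 in control WT, treated WT, control GEF-H1-/- and treated GEF-H1-/- DCs. FPKM carries no count of reads, so low genes have wide intervals, and those of the 10 genes spanned from 36.8% to 129% of the value. No other locus of the table overlapped a member's locus.

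The members, classes and lists were chosen with earlier results of these data known. Pathway genes named were up to 4 per list with the largest log2 change in WT and at least 5 FPKM in a group, and the 5 nearest patterns were named. One marker symbol was matched through an older name. Promoter sequences are from RefSeq (GRCm38.p6). The computation was tested on simulated data. Alternatives were pseudocounts of 0.1 and 5 FPKM, rescaling, no filter, a filter of 5 FPKM, a 1.5-fold threshold, and a requirement that the intervals be apart. Python 3.11.15, pandas 2.3.3 and numpy 2.4.6 were used.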

Additional observations from a re-analysis of the deposited data

Results flagged for a closer look

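*Dusp2* was singled out because its log2 changes with ansamitocin-P3 had opposite signs, 0.03 in WT and -0.17 without GEF-H1. The effects differed by 0.20 on the log2 scale, and its least favorable interval ends ran from -1.28 to 1.57. The difference was not tested, and all 4 intervals of the gene overlapped.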

How the results depend on the processing

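No paired analysis was possible because the columns give 1 value per group, and for the same reason no replicate could be left out in turn. Rescaling the groups moved none of the 50 log2 values of the 10 phosphatases by more than their intervals, each other pseudocount moved 3 of 50, and no value changed sign in a called comparison. *Dusp8* depended most on the pseudocount, with 6.21 in WT and 4.93 in GEF-H1-/- DCs at 0.1 FPKM, and 1.80 and 1.07 at 5 FPKM. With pseudocounts of 0.1 and 5 FPKM and a 1.5-fold threshold, the genes past the threshold, 563 in WT, became 956, 318 and 2017. The 123 in GEF-H1-/- DCs became 212, 77 and 454, and 70 when the intervals also had to be apart. The 214 between control genotypes became 372, 101 and 600, and the 463 between treated genotypes 801, 206 and 1687. The 216 with a difference in effect became 387, 123 and 935. Of the phosphatases, the 2 past the threshold between treated genotypes became 4, 1 and 8, and the 2 with a difference in effect 4, 1 and 5. In GEF-H1-/- DCs, *Dusp7* also passed at 1.5-fold. At 0.1 FPKM, *Dusp7* and *Dusp14* joined *Dusp5* and *Dusp8* in both, and at 5 FPKM *Dusp5* alone was past it. In WT, *Dusp6* and *Dusp14* passed at 0.1 FPKM or at 1.5-fold, and *Dusp4* did not pass at 5 FPKM. Rescaling, no filter and a filter of 5 FPKM left each of these counts within 1.5 times its value. With no filter this was fixed in advance for the counts between 2 groups. A gene under 1 FPKM in every group cannot reach a log2 change of 1 on the FPKM + 1 scale. Depth could not be derived, and the low control values of *Dusp8* and the values of *Dusp14* limit their ratios most.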

Other observations

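ERK has specific phosphatases in the nucleus (*Dusp5*) and in the cytoplasm (*Dusp6* and *Dusp7*), and their balance was compared after the values were seen. The ratio of *Dusp5* FPKM to the sum of *Dusp6* and *Dusp7* FPKM was 2.28 in control WT DCs (interval ends allowing 1.30 to 3.46) and 19.9 in treated WT DCs (10.8 to 30.2). In GEF-H1-/- DCs it was 2.02 (1.16 to 3.06) in control and 4.43 (2.47 to 6.72) in treated cells. The ranges of the control genotypes overlapped, treated WT DCs lay above all other groups, and the control and treated ranges of GEF-H1-/- DCs overlapped. Because the genes were chosen after they were seen to move in opposite directions, these ranges only restate their values. The nuclear genes *Dusp1* and *Dusp4*, which also act on ERK, were not part of the ratio.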
